A study of Homo sapiens with 6 samples.

Results

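Small nucleolar RNAs (snoRNAs) and small Cajal body RNAs were examined in HGC-27 cells, a line from an undifferentiated human gastric cancer. The members were chosen by name and by measured level: rows of the deposited gene table whose symbol began with SNORA, SNORD or SCARNA and a digit were taken when they reached 1 TPM (a transcript's length-corrected share of a library's total) in at least 3 of the 6 libraries. This held for 12 of 851 such rows, which carry 484 symbols, among 58233 gene rows in all. The 12 were 4 H/ACA RNAs of 421 rows, 2 C/D RNAs of 375 rows and 6 Cajal body RNAs of 55 rows. The libraries came from cells transfected with a mixture of siRNAs against STRN3 (siSTRN3, 3 libraries) or with a negative control siRNA (siNC, 3 libraries). All cells were the same line, grown in RPMI medium with serum, transfected with RNAiMAX, and taken after 72 h. STRN3 encodes striatin-3, a subunit of a protein phosphatase 2A complex.

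snoRNAs are noncoding RNAs of the nucleolus that pair with precursor ribosomal RNA. C/D snoRNAs, named for their C and D boxes, carry fibrillarin and guide ribose methylation, while H/ACA snoRNAs carry dyskerin and guide the change of uridine to pseudouridine. Cajal body RNAs have the same boxes and proteins but direct these changes to the RNAs of the spliceosome. In human cells most of these RNAs are cut from introns of host genes after splicing, while a few, U3 among them, have their own promoters and act in cleavage of the ribosomal RNA precursor.

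The measured members were few and had long rows, and their sequences show which rows can be told apart. The U3 rows SNORD3A (chr17:19188016-19188714, plus strand) and SNORD3B-2 (chr17:19063346-19064136, minus strand) each hold a U3 transcript of 217 bases. These are shown because they differ by 1 substitution, A78C, counted from the transcript's 5′ end with SNORD3A's base first. All sequences are from GENCODE release 29 transcripts (GRCh38), 5′ to 3′, and the capitals in these 2 mark TGATGA, the letters of a C box, and CTGA, those of a D box.
SNORD3A: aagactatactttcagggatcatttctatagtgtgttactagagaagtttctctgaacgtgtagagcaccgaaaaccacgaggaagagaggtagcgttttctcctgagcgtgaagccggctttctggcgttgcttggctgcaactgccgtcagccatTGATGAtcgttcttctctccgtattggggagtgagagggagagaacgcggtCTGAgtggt
SNORD3B-2: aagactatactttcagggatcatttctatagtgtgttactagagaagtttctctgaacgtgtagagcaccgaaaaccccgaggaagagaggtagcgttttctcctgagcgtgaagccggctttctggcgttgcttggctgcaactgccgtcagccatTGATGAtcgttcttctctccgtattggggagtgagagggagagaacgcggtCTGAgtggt

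The 2 U17 rows, SNORA73A (chr1:28507366-28507571, plus strand) and SNORA73B (chr1:28508559-28508762, plus strand), are shown because they are neighbours of like sequence. They share 192 identical bases, with 12 mismatches and 2 gap bases, an identity of 93.2%. The capitals mark the bases that differ between them.
SNORA73A: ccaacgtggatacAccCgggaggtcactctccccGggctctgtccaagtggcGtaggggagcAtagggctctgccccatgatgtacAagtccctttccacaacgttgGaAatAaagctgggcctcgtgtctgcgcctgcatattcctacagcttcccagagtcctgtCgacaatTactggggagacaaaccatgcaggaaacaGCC
SNORA73B: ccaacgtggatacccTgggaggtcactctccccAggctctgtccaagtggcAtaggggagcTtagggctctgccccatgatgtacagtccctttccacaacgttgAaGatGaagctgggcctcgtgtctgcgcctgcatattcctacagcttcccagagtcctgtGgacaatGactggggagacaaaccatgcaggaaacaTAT

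SCARNA5 (chr2:233275727-233276002, plus strand) and SCARNA13 (chr14:95533355-95533629, minus strand) are shown because they differ in length by 1 base and have different boxes near their ends. Capitals mark TGATGA and CTGA in SCARNA5, and ACA near the 3′ end of SCARNA13. ACA was sought only in the last 10 bases, so any box further inside is not marked.
SCARNA5: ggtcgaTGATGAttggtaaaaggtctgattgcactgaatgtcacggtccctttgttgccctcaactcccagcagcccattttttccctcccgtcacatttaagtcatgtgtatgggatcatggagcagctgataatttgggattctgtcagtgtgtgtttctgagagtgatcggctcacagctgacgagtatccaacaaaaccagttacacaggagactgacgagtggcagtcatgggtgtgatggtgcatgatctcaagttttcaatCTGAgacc
SCARNA13: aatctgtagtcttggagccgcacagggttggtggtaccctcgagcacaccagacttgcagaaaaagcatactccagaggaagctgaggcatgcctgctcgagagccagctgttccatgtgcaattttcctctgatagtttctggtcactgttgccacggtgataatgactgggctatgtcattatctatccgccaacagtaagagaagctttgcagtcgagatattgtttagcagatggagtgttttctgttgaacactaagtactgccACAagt

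The boxes at the transcript ends followed the names. CTGA stood within the last 15 bases of both C/D members and of 0 of the 4 H/ACA members, against 263 of 288 annotated C/D transcripts (91.3%) and 7.19% of all annotated transcripts. ACA stood within the last 10 bases of all 4 H/ACA members and neither C/D member, against 133 of 148 annotated H/ACA transcripts (89.9%) and 13.9% of all transcripts. TGATGA stood within the first 30 bases of 4 of 6 Cajal body members, against 6 of 23 annotated Cajal body transcripts (26.1%) and 0.875% of all transcripts. In both C/D members TGATGA first occurred at base 158. Of the 6 Cajal body members, 5 had CTGA and 2 had ACA in these windows, against 7 (30.4%) and 17 (73.9%) of the 23 annotated Cajal body transcripts. Only the transcript strand was searched.

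As to the series as a whole, depth is unknown because TPM keeps no read number. The labels do not say whether libraries came from separate cultures, so p-values measure the spread between libraries, which may be technical. In such bulk samples, fewer cells of a type and less RNA per cell cannot be told apart. Rows of the ribosomal RNA repeat took 43.0% ± 0.666 of the total in siSTRN3 libraries and 17.02% ± 0.728 in siNC libraries (SD, n = 3 each). Over the 13004 tested rows the median log2 fold change on the deposited scale was -0.57. Fold changes here are therefore given relative to the median gene, after each library was multiplied by 1 factor that equalised its median, with the deposited scale beside them where it changes a call or a direction. STRN3, the targeted gene, had 4.76, 5.0 and 5.56 TPM in the libraries labelled siSTRN3 and 3.51, 5.30 and 3.85 TPM in the siNC libraries, so its level goes against the label. On the deposited scale its log2 fold change was 0.24 (exact 2-sided permutation p = 0.3) and relative to the median gene 0.77 (exact p = 0.1, the smallest that 3 against 3 allows; limma adjusted p = 0.00894). Of the cell markers, VIM was the highest, at 1717.54 to 1753.25 TPM in siSTRN3 libraries and 2983.63 to 3058.14 TPM in siNC libraries. The other mesenchymal marker, CDH2, was at 0.11 TPM or less in every library. Leukocyte markers summed to 1.08 to 1.73 TPM in siSTRN3 libraries and 1.21 to 2.23 TPM in siNC libraries. Endothelial markers summed to at most 0.02 TPM in any library. The 5 epithelial markers EPCAM, CDH1, KRT8, KRT18 and KRT19 summed to 0.96 to 1.42 TPM in siSTRN3 libraries and 1.32 to 1.93 TPM in siNC libraries. The 6 gastric lineage markers summed to at most 0.12 TPM in any library, with MUC5AC, TFF1, TFF2 and GKN1 at 0 in all, so defining epithelial and gastric markers were close to absent. The fibroblast markers COL1A1, DCN, LUM and PDGFRA summed to 228 to 243 TPM in siSTRN3 libraries and 382.72 to 391.81 TPM in siNC libraries.

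Whether a small RNA row was listed above 0 followed its length. The shortest row above 0 was SNORA23, with 182 bases, so none of the 807 shorter matching rows was above 0 in any library, and 830 of the 851 rows were at 0 throughout. Of the 44 longer rows, 21 were above 0. In the class of 182 bases or more but below 250, 7 of 29 rows were above 0 (24.1%), against 6.35% of the other rows in the table of that length. From 250 bases and below 350, all 7 were above 0, against 11.98% of other rows, and 7 of 8 longer ones were, against 58.7% of other rows. Of other rows under 100 bases, 0.193% were above 0, and of those from 100 and below 140 bases 0.329%, so such short rows were almost all at 0 under other names too. From 140 and below 182 bases, 0 of 60 matching rows were above 0, against 45 of 829 other rows (5.43%). Some short RNAs of other kinds were listed at high levels, among them RNA5-8S5 (153 bases) and RNU1-1 (164 bases, a mean of 339 TPM over all libraries). What the library preparation or the counting did to short RNAs was not tested.

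**Figure D1:**
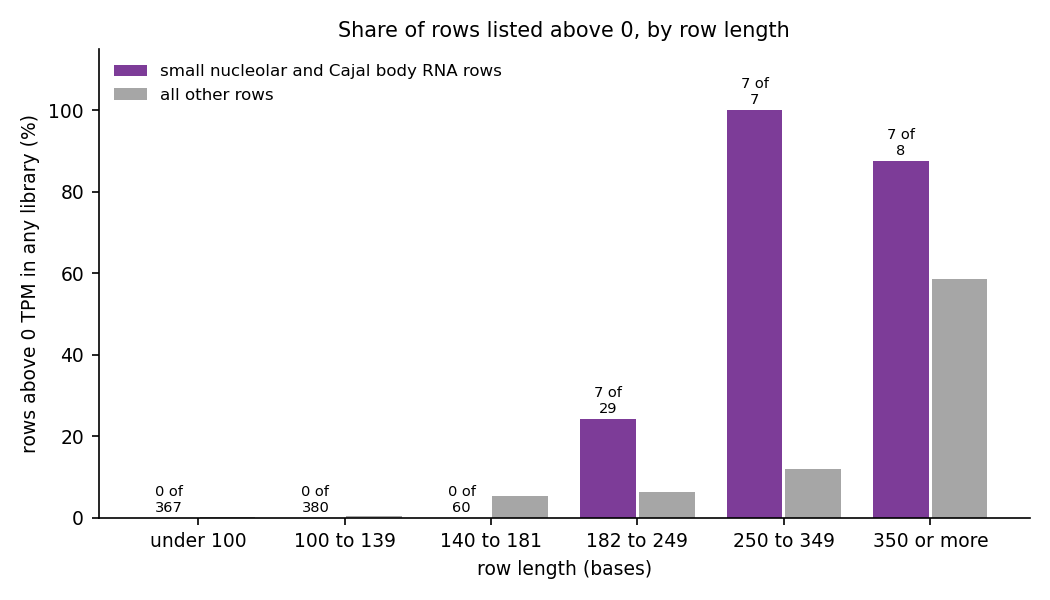
Share of rows above 0 TPM in any of the 6 libraries (vertical axis, percent) by row length in bases (horizontal axis), for small nucleolar and Cajal body RNA rows (purple, with counts) and all other rows (grey). None of the 807 named rows shorter than 182 bases was above 0, a bound set by the shortest named row above 0. All 7 from 250 and below 350 bases were above 0.

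The median length of the 12 members was 275.5 bases, with a range of 198 to 791, and that of all 851 rows 122 bases. These are row lengths, and some rows hold a shorter annotated transcript. The SNORA71B row has 272 bases and its transcript, in which the boxes were sought, 134. For SNORA59B, not a member, the lengths are 701 and 152 bases. The families of imprinted clusters were at 0 on every row: 45 rows of SNORD113 and SNORD114, 50 rows of SNORD115 and 33 rows of SNORD116, none over 102 bases. U8 (SNORD118, 134 bases) and U14 (SNORD14, 6 rows), which act in processing of the ribosomal RNA precursor, and U13 (SNORD13, 4 rows of 104 bases) were also listed at 0. Some of these zeros stood inside abundant genes. Of the 830 rows at 0, 481 could be placed in the annotation, 457 of them lay within a gene on the same strand, for 314 that gene had a mean of at least 1 TPM, and for 159 of at least 100 TPM. RPS2 held 3 such rows at a mean of 6320 TPM, RPL4 held 4 at 3625 TPM, and TAF1D held 14 at 50.4 TPM. NOP56 held 11 rows at 0 and SNHG1 held 8, with the hosts at means of 263 TPM and 222 TPM. A value of 0 here says only that the row is listed at 0.

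Of the 9 rows above 0 that missed the rule, 4 reached 1 TPM in 2 libraries. SNORD17, a C/D RNA, had 0.39, 4.04 and 3.25 TPM in siSTRN3 libraries and 0 in all siNC libraries. SNORA53 had 3.05, 8.80 and 0 TPM in siSTRN3 libraries and 0 in all siNC libraries, and SCARNA6 had 2.23, 2.14 and 0 TPM against the same zeros. Each was seen in siSTRN3 libraries alone, in 2 or 3 of them. SCARNA16 ran differently, with 15.29, 0 and 0 TPM in siSTRN3 libraries and 29.58, 0 and 0 TPM in siNC libraries, so it was listed in replicate 1 of each group. SNORA23 was listed in 1 library, siNC 3, at 19.02 TPM. SCARNA9, SNORA59B, SNORD3B-1 and SCARNA15 were at 1.90 TPM or less throughout. At the other side of the threshold stood SNORA74A, the member with exactly 3 libraries at 1 TPM.

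The members covered a wide range, and 5 of the 12 reached 1 TPM in every library while 5 were at 0 in at least 1 library. By the mean over all 6 libraries U3, SNORD3A, was the most abundant, and SNORA73B and SNORA73A followed, although SNORA73A was listed at 0 in 2 of the 3 siNC libraries. By the level rule, 6 members reached 1 TPM in all 3 siSTRN3 libraries but in fewer than 3 siNC libraries, so that they met it through the siSTRN3 libraries by themselves. These were SNORA73A, SCARNA7, SCARNA2, SCARNA5, SCARNA10 and SNORA71B, and 3 of them are among the rows called below. None met it through siNC libraries in this way, so counts and medians over the members are given as descriptions.

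**Figure D2:**
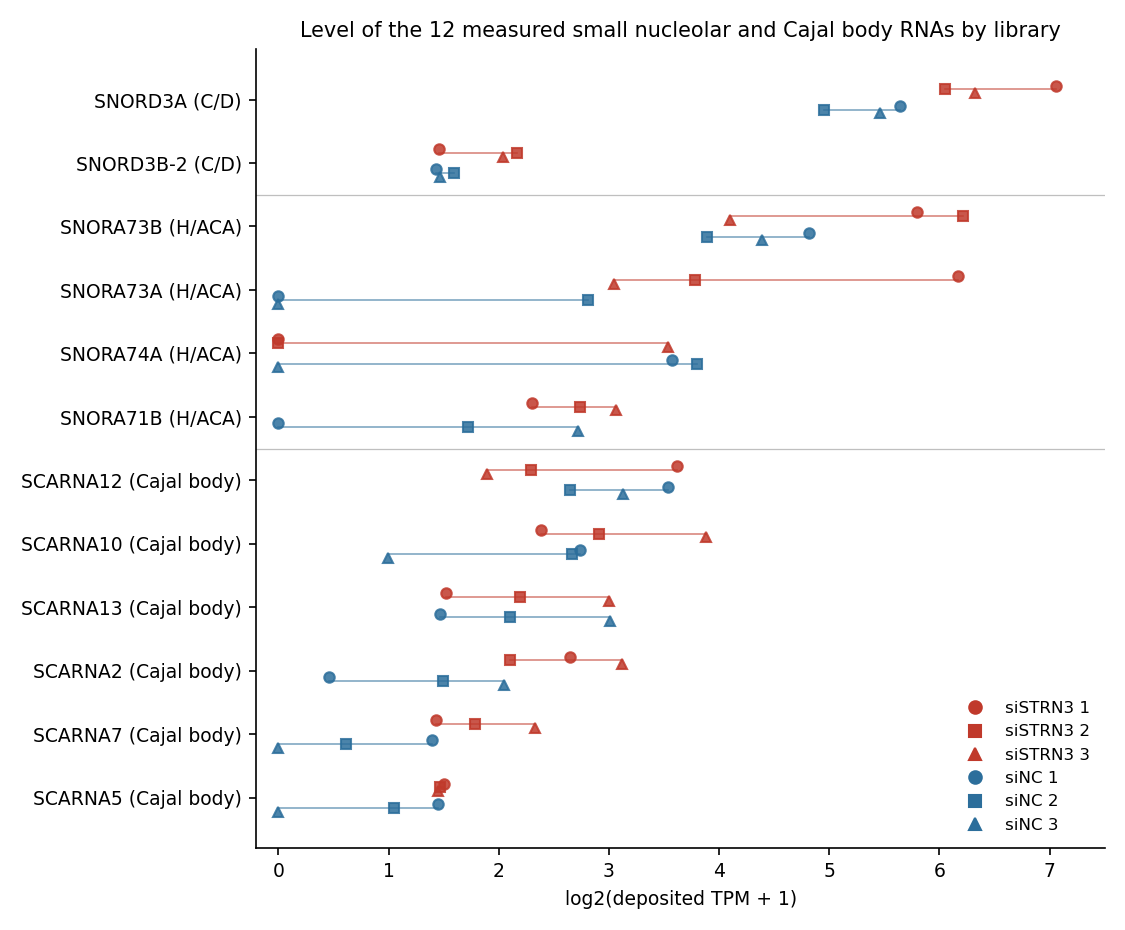
Level of each of the 12 members as log2(deposited TPM + 1) (horizontal axis) in the libraries labelled siSTRN3 (red, upper line of each pair) and siNC (blue, lower line), with replicates 1, 2 and 3 as circle, square and triangle, offset slightly in height. On this deposited scale the groups do not overlap for SNORD3A, SNORA73A, SCARNA2 and SCARNA7, all higher in siSTRN3, and points at 0 are rows listed at 0.

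Relative to the median gene, 5 of the 12 members rose in the libraries labelled siSTRN3 and 0 fell by limma (adjusted p under 0.05 over 13004 rows; 0 members had a negative fold change at an unadjusted p under 0.05). They were both C/D members, 2 of 6 Cajal body members and 1 of 4 H/ACA members. Of them, SNORA73A, SCARNA7 and SCARNA2 met the level rule through the siSTRN3 libraries by themselves. Counts, medians, overlaps and p-values of the members are therefore descriptions only. Over all tested rows, 21.3% were called, 11% higher and 10.4% lower. The median log2 fold change of the members was 1.48, with 11 of 12 above 0, and that of all tested rows was -0.01. Some other noncoding RNAs, chosen after their values were seen, also rose. RN7SK, which holds the elongation factor P-TEFb in check, rose by 2.05 (adjusted p = 0.000125). RPPH1, the RNA of ribonuclease P, rose by 1.71 (adjusted p = 0.000129). TERC, looked up beside them, was at 0.81 and did not pass (adjusted p = 0.125), and RMRP did not stand on 1 row. On the deposited scale 4 members were called higher and 0 lower, where 81.8% of all rows were called, 1.01% higher and 80.8% lower, and the members' median was 0.97. The group values did not overlap for 4 members on the deposited scale, all higher in siSTRN3, where 83.3% of all rows did not overlap and 1.15% were higher. After rescaling 8 members did not overlap, all higher in siSTRN3, against 42.4% of all rows, of which those higher in siSTRN3 were 20.7% of all rows. Leaving out 1 library gave 2 to 4 called members: 2 without siSTRN3 2 or siNC 2, 3 without siSTRN3 1, siSTRN3 3 or siNC 1, and 4 without siNC 3.

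Among the C/D RNAs, U3 was higher in every library labelled siSTRN3. SNORD3A had 132.60, 65.12 and 78.78 TPM in siSTRN3 libraries and 48.94, 29.91 and 43.02 TPM in siNC libraries. The lowest siSTRN3 library stood above the highest siNC library. The log2 fold change was 1.76 ± 0.29 (SE, adjusted p = 0.00833), and 1.12 on the deposited scale (adjusted p = 0.0085). It was the one member called after any single library was left out, with adjusted p between 0.0128 and 0.0290. SNORD3B-2 had 1.75, 3.49 and 3.10 TPM in siSTRN3 libraries and 1.69, 2.01 and 1.76 TPM in siNC libraries. Its groups overlap on the deposited scale, because siSTRN3 1 lay within the siNC range. It rose by 0.84 ± 0.20 on the log2 scale relative to the median gene (SE, adjusted p = 0.0281) and was not called on the deposited scale (0.39, adjusted p = 0.0891). Left-out libraries ended its call in 5 cases, all but siSTRN3 1, with adjusted p of 0.0663 to 0.0869.

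The U3 transcripts of these 2 rows have 99.5% identity, and 5 further genes held a copy of SNORD3A's at 95% or more, of which 1, SNORD3B-1, was above 0 in any library. How reads with several matches were divided is not given in the sources used here, so the split between copies is uncertain. Summed over the 11 SNORD3 rows, U3 had 134.35, 68.61 and 81.88 TPM in siSTRN3 libraries and 50.63, 31.92 and 44.89 TPM in siNC libraries. The sum differed by 1.75 on the log2 scale relative to the median gene, close to SNORD3A's own value. Both rows are longer than the transcript they hold, with 699 and 791 bases, and TPM divides by the row's length.

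Among the H/ACA RNAs, both U17 copies were higher on average and varied widely between libraries. U17 acts in cleavage of the ribosomal RNA precursor rather than as a modification guide. SNORA73B had 54.45, 73.12 and 16.14 TPM in siSTRN3 libraries and 27.07, 13.85 and 19.94 TPM in siNC libraries. The siSTRN3 3 library lay inside the siNC range. The difference of 1.63 ± 0.55 on the log2 scale did not pass the test (SE, adjusted p = 0.0805), and without siSTRN3 3 it did (2.28, adjusted p = 0.00891).

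SNORA73A had 70.83, 12.76 and 7.26 TPM in siSTRN3 libraries and 0, 6.03 and 0 TPM in siNC libraries. The groups did not overlap, but siSTRN3 1 was several times the other values. It rose by 3.80 ± 0.98 on the log2 scale (SE, adjusted p = 0.0369), a size that depends on the pseudocount because of the zeros: with 0.1 in place of 1 it was 6.02. The call ended without siSTRN3 1 (adjusted p = 0.0681), siSTRN3 2 (0.06996), siNC 1 (0.112) or siNC 3 (0.114). Summed, the 2 copies had 125.28, 85.88 and 23.40 TPM in siSTRN3 libraries and 27.07, 19.88 and 19.94 TPM in siNC libraries, so siSTRN3 3 lay within the siNC range.

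SNORA71B, a guide of ribosomal RNA pseudouridylation (chr20:38425083-38425354, minus strand), had 3.92, 5.66 and 7.37 TPM in siSTRN3 libraries and 0, 2.29 and 5.57 TPM in siNC libraries. Its groups overlap on the deposited scale but not after rescaling. The difference of 1.66 ± 0.58 on the log2 scale did not pass (SE, adjusted p = 0.0884), but passed without siNC 3 (adjusted p = 0.0374). SNORA74A, the member with the shortest row (198 bases), was listed in 1 siSTRN3 library at 10.58 TPM, with 0 in the others. In 2 siNC libraries it was listed at 10.91 and 12.94 TPM, with 0 in siNC 3. It was the one member with a negative log2 fold change, -0.98 ± 1.32 (SE, adjusted p = 0.635).

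Among the Cajal body RNAs, SCARNA2 and SCARNA7 rose and the other 4 did not pass. SCARNA2 (chr1:109100193-109100612, plus strand), which guides methylation of U2 spliceosomal RNA, had 5.27, 3.28 and 7.67 TPM in siSTRN3 libraries and 0.37, 1.81 and 3.12 TPM in siNC libraries. The groups did not overlap, with siSTRN3 2 just above siNC 3. The log2 fold change was 1.74 ± 0.40 (SE, adjusted p = 0.0263). It was not called without siSTRN3 1 (adjusted p = 0.0666), siSTRN3 3 (0.0692), siNC 1 (0.0527) or siNC 2 (0.0686).

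SCARNA7 (chr3:160514907-160515236, minus strand), also called U90, had 1.69, 2.45 and 4.03 TPM in siSTRN3 libraries and 1.62, 0.53 and 0 TPM in siNC libraries. The groups stood apart by the small gap between 1.69 TPM in siSTRN3 1 and 1.62 TPM in siNC 1. How many reads such low values stand for is not given, so the precision of this gap is unknown. SCARNA7 rose by 1.52 ± 0.35 on the log2 scale (SE, adjusted p = 0.0262). The call ended without siSTRN3 2 (adjusted p = 0.0646), siSTRN3 3 (0.0655), siNC 2 (0.0788) or siNC 3 (0.0694), and with a pseudocount of 0.1 (0.0622).

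SCARNA10 (U85; chr12:6510222-6510551, plus strand), which joins C/D and H/ACA parts and modifies U5 spliceosomal RNA, had 4.23, 6.52 and 13.69 TPM in siSTRN3 libraries and 5.65, 5.34 and 0.99 TPM in siNC libraries. The groups overlap on the deposited scale but not after rescaling, and the log2 fold change of 1.45 ± 0.53 did not pass (SE, adjusted p = 0.102). SCARNA5 had 1.83, 1.76 and 1.72 TPM in siSTRN3 libraries and 1.73, 1.07 and 0 TPM in siNC libraries. The siSTRN3 values were almost equal and the siNC values were spread. How many reads such low values stand for is not given, so near-equal values are not read as precision. The difference of 0.97 ± 0.30 on the log2 scale did not pass (SE, adjusted p = 0.0624). It passed without siNC 1 (adjusted p = 0.0394) or siNC 3 (0.0498).

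SCARNA13 (U93), an H/ACA-type guide, had 1.86, 3.58 and 7.0 TPM in siSTRN3 libraries and 1.76, 3.28 and 7.04 TPM in siNC libraries. The groups covered the same range, with a log2 fold change of 0.54 ± 0.48 (SE, adjusted p = 0.458). SCARNA12 (U89; chr12:6967337-6967606, minus strand) had 11.26, 3.91 and 2.72 TPM in siSTRN3 libraries and 10.56, 5.26 and 7.71 TPM in siNC libraries. Its difference was 0.06 ± 0.46 relative to the median gene (SE, adjusted p = 0.944) and -0.50 on the deposited scale, so the sign depends on the scale. It also turned without siSTRN3 1 (-0.47) or siNC 2 (-0.17).

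In the authors' deposited table the adjusted p was 1.1e-05 for SNORD3A, 0.00315 for SCARNA2, 0.00632 for SNORD3B-2 and 0.0922 for SCARNA10, and 1 for the other 8 members. SNORA73A and SCARNA7, which rose here, are among those at 1 in the authors' deposited table. A listed 1 may stand for a row that was not tested, so it is not read here as a lack of difference.

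The classes differed in which rows carried them. The H/ACA members summed to 129.20, 91.54 and 41.35 TPM in siSTRN3 libraries and 37.98, 35.11 and 25.51 TPM in siNC libraries. The C/D members summed to 134.35, 68.61 and 81.88 TPM in siSTRN3 libraries and 50.63, 31.92 and 44.78 TPM in siNC libraries. The Cajal body members summed to 26.14, 21.50 and 36.83 TPM in siSTRN3 libraries and 21.69, 17.29 and 18.86 TPM in siNC libraries. The H/ACA and C/D groups did not overlap in the members' summed TPM, while siSTRN3 2 lay within the siNC range of the Cajal body class. Over every matching row the H/ACA sums did overlap, at 41.35 TPM in siSTRN3 3 and 44.64 TPM in siNC 3. As shares of the library total the members' sums did not overlap in any class. For Cajal body RNAs the gap was small, with 0.00222% in siSTRN3 2 and 0.00220% in siNC 1. Over every matching row the H/ACA and Cajal body shares did overlap, and the highest Cajal body share was in siNC 1 (0.00527%). The siSTRN3 over siNC ratio of the members' mean shares of the library total was 2.71 for H/ACA, 2.28 for C/D and 1.49 for Cajal body RNAs. Over every matching row it was 2.37 for H/ACA, 2.34 for C/D and 1.23 for Cajal body RNAs. The ratios of the 3 classes were not tested against each other. Without SNORA73A and SNORA73B the H/ACA sum averaged 9.18 ± 7.65 TPM in siSTRN3 libraries and 10.6 ± 4.84 TPM in siNC libraries (SD, n = 3 each). Without SNORD3A the C/D sum was SNORD3B-2 alone, and its groups overlapped. It averaged 2.78 ± 0.91 TPM in siSTRN3 libraries and 1.82 ± 0.17 TPM in siNC libraries (SD, n = 3 each). SNORD3A alone held 35.8% to 49.2% of the members' summed TPM in siSTRN3 libraries and 35.5% to 48.3% in siNC libraries. All 12 members together made up 0.0218% ± 0.0072 of the total in siSTRN3 libraries and 0.00959% ± 0.00141 in siNC libraries (SD, n = 3 each).

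**Figure D3:**
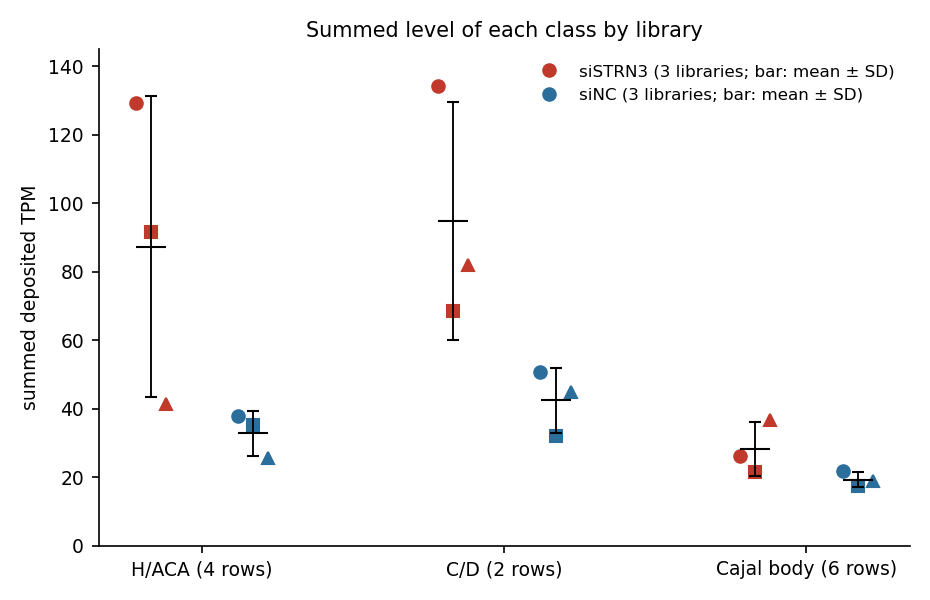
Summed deposited TPM of the members of each class (vertical axis) in each library labelled siSTRN3 (red, left) and siNC (blue, right), with replicates 1, 2 and 3 as circle, square and triangle and the bar as mean ± SD over 3 libraries. The H/ACA and C/D sums do not overlap between groups, from 41.35 and 68.61 TPM upward in siSTRN3, and the Cajal body sums do overlap.

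Members were compared with the genes they lie in. By the annotation 9 of the 12 members lay within 9 host genes that had a level, 8 of them in an intron of at least 1 such host, SCARNA2 lay in an exon of the noncoding gene AL356488.2, which is listed at 0, and neither U3 member had a host. Of the 9 hosts, 2 were called higher relative to the median gene, SNHG3 and PHB2, and 0 lower, against 11% and 10.4% of all rows. On the deposited scale all 9 were called lower, with log2 fold changes between -0.75 and -0.30, as were 80.8% of all rows. Relative to the median gene, the log2 fold changes of the 9 small RNAs ran between -0.98 and 3.80, and those of their hosts between -0.15 and 0.32, with a median of 0.10. SCARNA12, at 0.06, was below its host PHB2, at 0.14. Of these hosts, SNHG3 and PHB2 have exonic sequence in common with a member, SNORA73A and SCARNA12.

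SNORA73A and SNORA73B lie in introns of RCC1, which encodes the exchange factor of the GTPase Ran, and SNORA73A lies wholly in an exon of SNHG3, a noncoding host gene. RCC1 had 75.61, 70.96 and 74.00 TPM in siSTRN3 libraries and 103.28, 112.78 and 107.36 TPM in siNC libraries, and SNHG3 had 25.84, 27.77 and 29.10 TPM in siSTRN3 libraries and 36.12, 37.13 and 36.96 TPM in siNC libraries. Both hosts were lower in siSTRN3 by deposited TPM and near 0 relative to the median gene, at 0.10 (adjusted p = 0.117) for RCC1 and 0.23 (adjusted p = 0.0228) for SNHG3. The log2 ratio of SNORA73A to RCC1 was higher in siSTRN3 libraries by 3.94 and its groups did not overlap (exact 2-sided permutation p = 0.1). That of SNORA73B to RCC1 was higher by 1.55 with overlapping groups (exact p = 0.2). Against SNHG3 the differences were 3.80 for SNORA73A (exact p = 0.1, no overlap) and 1.41 for SNORA73B (exact p = 0.2, overlap). Since SNORA73A's 206 bases are identical to part of SNHG3, reads of the pair cannot be told apart by sequence. Their sum was 96.67, 40.53 and 36.36 TPM in siSTRN3 libraries and 36.12, 43.16 and 36.96 TPM in siNC libraries. These deposited values overlap, and the sum's log2 difference was 1.06 relative to the median gene and 0.43 on the deposited scale. Because TPM divides by row length and SNHG3 is longer, the sum still depends on how reads were divided.

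Further ratios did not overlap between groups, each higher in siSTRN3 libraries at an exact 2-sided permutation p of 0.1. The small RNAs in them, like SNORA73A above, met the level rule through the siSTRN3 libraries by themselves. Their p-values and lack of overlap are therefore descriptions only, and such ratios were not computed for other genes. SCARNA7 to KPNA4, an importin subunit of nuclear transport, was higher by 1.88 on the log2 scale, and SNORA71B to the noncoding SNHG17 by 1.87. SCARNA10 to NCAPD2, a condensin subunit, was higher by 1.68, and SCARNA5 to the autophagy gene ATG16L1 by 1.14. KPNA4 had 4.07, 4.27 and 4.36 TPM in siSTRN3 libraries and 7.36, 7.60 and 7.55 TPM in siNC libraries, with a log2 fold change of -0.15 relative to the median gene (adjusted p = 0.143). SCARNA5 shares ATG16L1 with SCARNA6, and the host's log2 fold change was 0.10 (adjusted p = 0.565).

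For 3 more pairs the ratios overlapped. SCARNA13 to SNHG10 differed by 0.36 (exact p = 0.6), SNORA74A to SNHG4 by -0.98 (exact p = 1) and SCARNA12 to PHB2 by 0.02 (exact p = 1). SCARNA12 shares 239 of its 270 bases with exonic PHB2 sequence, at 283 TPM over all libraries, and SCARNA10 shares 248 of its 330 bases with the noncoding gene AC006064.5, listed at 5.23 TPM in siNC 3 and 0 elsewhere. SCARNA13 overlaps an exon of GLRX5, an iron-sulfur cluster gene on the opposite strand, by 127 bases. The strand setting is not given in the sources used here, so reads of this pair may not be told apart. GLRX5 had 43.97, 42.74 and 47.73 TPM in siSTRN3 libraries and 64.06, 66.77 and 65.77 TPM in siNC libraries, and its log2 fold change was 0.10 relative to the median gene (adjusted p = 0.145).

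**Figure D4:**
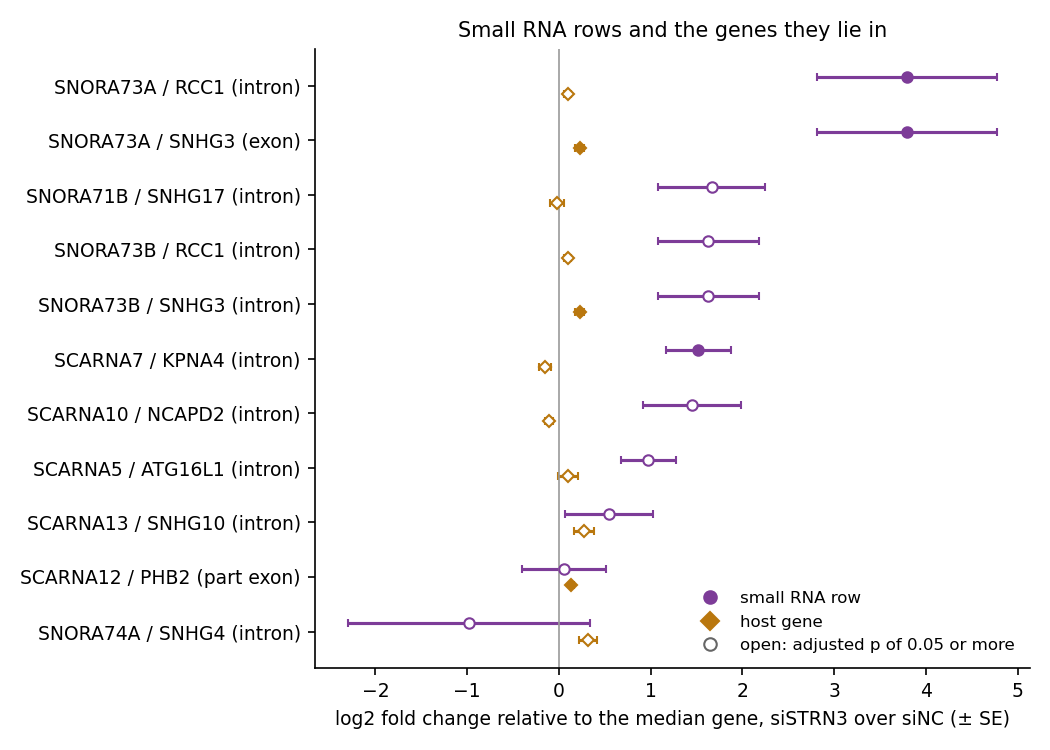
Log2 fold change relative to the median gene, siSTRN3 over siNC (horizontal axis, ± SE of the limma fit, 3 libraries per group), for small RNA rows (purple circles) and the host genes they lie in (orange diamonds), 1 line per pair. Filled symbols have an adjusted p under 0.05, and the small RNAs lie between -0.98 and 3.80 while the hosts lie between -0.15 and 0.32.

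Low members took a few discrete values. SCARNA13 and SCARNA5 differ by 1 base in length, so their TPM ratio compares them almost directly. The ratio was 1.02, 2.03 and 4.07 in siSTRN3 libraries and 1.02 and 3.07 in siNC 1 and 2, and SCARNA5 was at 0 in siNC 3. In units of a step of 1.02, fitted to these same ratios, they are 1.0, 2.0 and 4.0 steps in siSTRN3 libraries and 1.0 and 3.01 steps in siNC libraries. SNORA71B to SCARNA5 fell at 2.0, 3.0 and 4.0 steps of 1.07 in siSTRN3 libraries and 2.0 in siNC 2, all within 0.00235 of a whole number. SCARNA12 departed from this, by up to 0.446 of a step. How many reads a step stands for is not given, so the precision behind these rows is unknown. SCARNA7, a called row of low values, was not set on steps, and its precision is equally unknown.

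**Figure D5:**
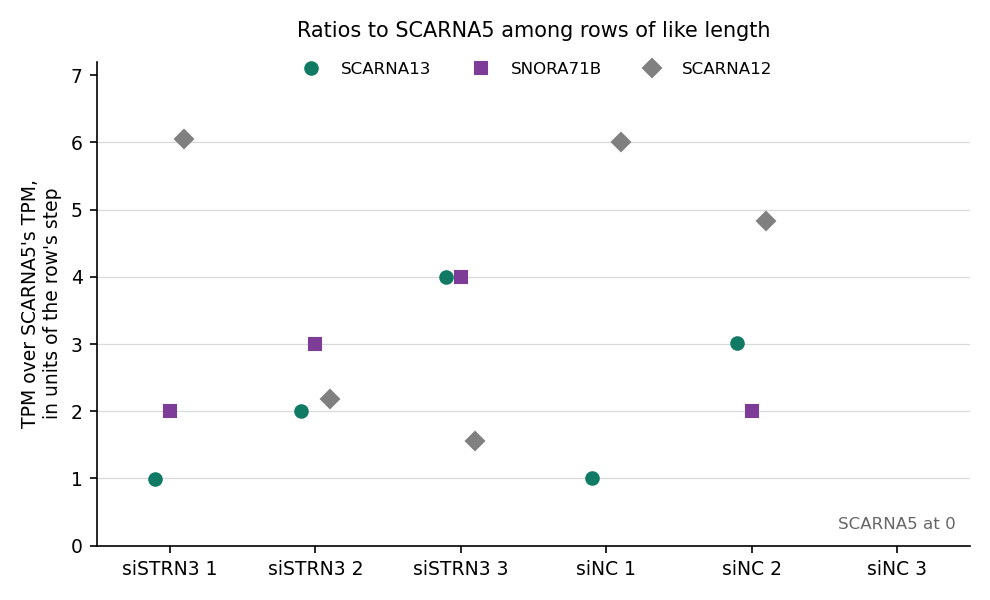
TPM of 3 rows of like length divided by SCARNA5's TPM, in units of each row's step (vertical axis), in each library (siSTRN3 left, siNC right). SCARNA13 and SNORA71B sit on whole steps, at 1.0, 2.0 and 4.0 for SCARNA13 in siSTRN3 libraries, and SCARNA12 does not.

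Genes of the snoRNA machinery moved both ways. Of 39 genes in 5 lists, all tested, 6 rose and 6 fell relative to the median gene, against 11% and 10.4% of all rows, and their median log2 fold change was -0.02. On the deposited scale 37 of them were called, all lower, as were 80.8% of all rows. Among the 4 C/D core proteins, 2 rose and 0 fell. FBL, which encodes the methyltransferase fibrillarin, had 352.09, 379.08 and 364.05 TPM in siSTRN3 libraries and 506.84, 474.82 and 482.15 TPM in siNC libraries, with a log2 fold change of 0.23 ± 0.04 (SE, adjusted p = 0.0139), and NOP56, a scaffold protein, 0.13 ± 0.03 (SE, adjusted p = 0.0243). NOP58 and SNU13 were at 0.07 each and did not pass.

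Among the 4 H/ACA core proteins, 1 rose and 1 fell. NHP2 had 278.54, 264.28 and 288.32 TPM in siSTRN3 libraries and 290.37, 294.16 and 306.94 TPM in siNC libraries, a log2 fold change of 0.55 ± 0.04 relative to the median gene (SE, adjusted p = 0.000408) and -0.10 on the deposited scale. DKC1, which encodes the pseudouridine synthase dyskerin, had 72.69, 76.75 and 76.06 TPM in siSTRN3 libraries and 131.10, 137.54 and 136.43 TPM in siNC libraries, and fell by 0.19 on the log2 scale (SE 0.04, adjusted p = 0.0147). GAR1 and NOP10 did not pass, at -0.07 and -0.02.

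Of 10 assembly factors, 1 rose, the ATPase gene RUVBL1 (0.21 ± 0.03, adjusted p = 0.00622), and 0 fell. Of 10 Cajal body factors, 1 rose and 4 fell. NOLC1, a chaperone of both snoRNP kinds, had 117.89, 115.03 and 118.86 TPM in siSTRN3 libraries and 249.97, 257.28 and 250.20 TPM in siNC libraries, with a log2 fold change of -0.45 ± 0.02 (SE, adjusted p = 0.000166). COIL, which encodes the Cajal body scaffold coilin, was at -0.26 (adjusted p = 0.0283) and GEMIN2, of the SMN complex, at -0.32 (adjusted p = 0.0280). SMN2 was at -0.26 (adjusted p = 0.0140), while its near-identical copy SMN1 was at 0.03 and did not pass, so the split between them is uncertain. TGS1, which trimethylates the caps of small nuclear RNAs and U3, was at 0.29 (adjusted p = 0.0339). All 5 were lower by deposited TPM, TGS1 included. Of 11 processing and decay factors, 1 rose and 1 fell, both of the RNA exosome: EXOSC3 (0.16, adjusted p = 0.0469) and EXOSC10 (-0.21, adjusted p = 0.0103). DBR1, which opens the intron lariats that hold most snoRNAs, was at -0.07 (adjusted p = 0.502).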

How the data were processed

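RNA sequencing values of 6 libraries were taken from the gene table the authors deposited; its headers give TPM for each library, and it also holds p-values and adjusted p-values the authors computed. Per the submitters' processing notes, the tools were HISAT2, Cufflinks and RSEM and the build GRCh38.p10, with neither role nor version. How RNA was selected, whether counting used strand and how reads matching several genes were divided is not given in the sources used here. Values in TPM scale each library to 1 total and hold no depth, so no counting interval can be given.

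Groups and replicate numbers came from the sample titles. The members and gene lists were chosen with earlier results of these data known. The 13004 rows that reached 1 TPM in 3 or more libraries were fitted with limma-trend (limma 3.58.1, with R 4.3.3 and data.table, version 1.17.8) on log2(TPM + 1). P-values were adjusted by the Benjamini-Hochberg method over all of them, and 0.05 was the threshold. Libraries were first multiplied by 1 factor each so that their medians over these rows were equal; the deposited scale was an alternative. Fold changes on this scale understate changes of low rows. The fit was tested on simulated data. Named genes are STRN3, all members, their hosts, and in each list the genes that passed, up to 4, or the 2 of highest level; a few further list genes were named after their values were seen. Ratios to hosts were tested on log2 values with exact 2-sided permutation tests, whose smallest p here is 0.1.

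Positions, hosts and transcripts came from GENCODE release 29 by symbol and length. Copies were searched with blastn (BLAST+ 2.17.0) at 95% identity over 50% of the transcript. Python 3.11.15, pandas 2.3.3, numpy 2.4.6, scipy 1.17.1, biopython 1.88 and matplotlib 3.10.9 were used.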

Additional observations from a re-analysis of the deposited data

How the results depend on the processing

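The 5 called members became 1 with no filter on low values and 2 to 3 without 1 library, except 4 without siNC 3. They were 4 on the deposited scale, with a pseudocount of 0.1 or without SNORA73A (an alternative chosen after seeing the data). Among rows with a mean of at least 1 TPM the same 5 members were called. With matching rows that missed the level rule included, 6 rows were called there. The 2772 called rows became 10643 on the deposited scale (131 higher and 10512 lower) and 1485 to 2128 without 1 library. The 12 called machinery genes became 37 on the deposited scale and 6 to 9 without 1 library (6 without siNC 2 or siNC 3). STRN3's log2 fold change was 0.24 on the deposited scale, where it did not pass. With the rRNA repeat rows taken out of the total, the ratio of shares was 3.32 for C/D and 2.16 for Cajal body RNAs; for H/ACA it was 3.96. SCARNA12 turned negative on the deposited scale (-0.50) and without siSTRN3 1 (-0.47) or siNC 2 (-0.17), and ran up to 0.43 without siSTRN3 3. Its ratio to PHB2 turned negative with a pseudocount of 0.1 (-0.084) and without siSTRN3 1 (-0.50) or siNC 2 (-0.21), and ran up to 0.39 without siSTRN3 3. No other member or host ratio changed direction under the alternatives run. For these results the cause was not tested.

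The labels do not say whether equal replicate numbers were paired. Over all tested rows the deviations of same-numbered libraries of the 2 groups correlated at 0.06, -0.02 and -0.08. Those of other-numbered libraries correlated at -0.07 to 0.10. These values cover all rows together and cannot decide whether single members ran alike by number. With the replicate number as a block, 1745 rows, 5 members and 6 machinery genes were called; SCARNA7 and SNORA73A were no longer called (adjusted p = 0.0743 and 0.0603), and SCARNA13 (0.0290) and SNORA71B (0.0397) were. The block on the deposited scale, chosen after seeing the data, called 10510 rows and 38 machinery genes, gave STRN3 0.24 without a call, and gave SCARNA12 -0.50.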
